A study of Mus musculus with 2 samples.

Results

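Classical monocytes were described here in the livers of 2 C57BL/6J mice profiled by single-cell RNA sequencing. They were chosen from the counts of each cell. A member held 1000 or more unique molecular identifiers (UMIs, each standing for 1 captured RNA molecule) from 500 or more genes, and mitochondrial RNA gave no more than 15% of them. It held at least 3 UMIs of Ly6c2, Ccr2 and Plac8 together, from at least 2 of the 3 genes, making up at least 0.2% of its UMIs without hemoglobin. Limits then removed cells with much RNA of MHC class II genes, Kupffer cell genes, neutrophil granule genes, progenitor genes, lymphoid genes or the non-classical monocyte genes Ace, Treml4 and Ear2. This gave 391 cells of the 25418 that passed the cell filter, 45 of 11572 in the saline mouse and 346 of 13846 in the Ter119 mouse.

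The Ter119 mouse received 1 subcutaneous dose of 35 ug of the murine Ter119 antibody and then 10 daily doses of 10 ug, and the saline mouse received saline. The mice were 7 to 10 weeks old, no genetic change is named for either, and the livers were taken 24 (unit not given in the labels) after the last injection. Macrophages were enriched from the digested liver with beads against F4/80 and CD11b, and the suspensions were labelled with hashtag antibodies and pooled in equal cell numbers before capture. CD11b is also carried by monocytes, so the shares below are shares of an enriched suspension and not of the liver. With 1 mouse per group there is no replicate, and no test of the treatment was possible. The intervals below cover counting error only.

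Classical monocytes leave the bone marrow in a CCR2-dependent way, circulate with high surface Ly6C and enter tissues, where they can become macrophages or convert in blood to patrolling non-classical monocytes. In the liver they are the source that refills an emptied Kupffer cell niche. The antibody Ter119 recognises an antigen of the red cell lineage, and coated red cells are taken up by liver macrophages, which break heme down with heme oxygenase 1 and store the iron in ferritin.

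The gene that names these cells, Ly6c2, has a closely related neighbour on chromosome 15, Ly6c1, known from endothelial cells. The first 240 coding bases of both transcripts are shown because counts of the pair are hard to keep apart. They come from the GENCODE annotation of GRCm38, where both genes lie on the minus strand, and capitals mark the bases at which they differ. Ly6c2-201 spans chr15:75108161-75111970 and Ly6c1-201 spans chr15:75045013-75048830.
Ly6c2-201: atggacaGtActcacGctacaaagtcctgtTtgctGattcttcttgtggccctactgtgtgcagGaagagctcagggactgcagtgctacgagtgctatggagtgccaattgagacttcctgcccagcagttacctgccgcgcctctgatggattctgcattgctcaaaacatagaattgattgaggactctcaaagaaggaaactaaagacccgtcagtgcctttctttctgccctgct
Ly6c1-201: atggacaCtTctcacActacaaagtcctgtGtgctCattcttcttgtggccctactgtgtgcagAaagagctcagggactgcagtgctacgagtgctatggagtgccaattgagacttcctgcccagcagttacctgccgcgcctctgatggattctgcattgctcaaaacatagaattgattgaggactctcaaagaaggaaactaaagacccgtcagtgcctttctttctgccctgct
The whole coding parts were 97.7% identical, with 9 differing bases, of which 6 lie in the stretch shown. Over the last 300 bases of each transcript, the end that this 3' assay reads, 93.5% of aligned positions were identical. Ly6c1 was counted at 0 UMIs in the saline members and at 1 UMI in the Ter119 members, against 779 and 830 UMIs of Ly6c2. It was also near 0 in endothelial cells, with 3 UMIs in each library. Reads that match both genes could have been split or lost in counting, so the Ly6c2 level is uncertain.

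The rule genes are given as a description, since they chose the cells. Plac8, a small cysteine-rich protein of myeloid cells, stood at 5699 counts per 1000000 (CPM, hemoglobin UMIs left out of the total) in the saline members and at 4643 CPM in those of Ter119. Pairs of values below give saline first and Ter119 second. Ccr2, the receptor for the monocyte chemokine CCL2, stood at 972 and 847 CPM, and Ly6c2 at 2188 and 1244 CPM. All 3 genes were seen in 39 of the 45 saline members and in 151 of the 346 Ter119 members, whose median depth was 8041 and 1805.5 UMIs without hemoglobin. No saline member and 8 Ter119 members held exactly 3 UMIs of the rule genes. The 21 Ter119 members with 3 or 4 such UMIs, just inside the minimum, had S100a4 at 812 CPM, and the 125 Ter119 cells with 2 that otherwise met the rule, just outside it, had 305 CPM.

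Genes of classical monocytes that the rule did not use were also abundant in the members. S100a4 and S100a6, calcium-binding proteins high in classical monocytes, stood at 1879 and 2522 CPM in saline members and at 1607 and 2362 CPM in Ter119 members. In Kupffer cells of the same libraries S100a4 stood at 3.76 and 8.82 CPM. S100a4 or S100a6 was seen in 45 of 45 saline and in 334 of 346 Ter119 members. F13a1, the coagulation factor XIII subunit made by monocytes, stood at 329 and 322 CPM in the members, against 0.762 and 0.754 CPM in Kupffer cells and 0 CPM in neutrophils of both libraries. Vcan, the matrix proteoglycan versican, stood at 64.6 and 86.9 CPM in members and at 0 CPM in neutrophils and lymphoid cells. Lyz2, lysozyme of myeloid cells, was the most abundant of these at 15329 and 11638 CPM, which is 464% and 232% of the Kupffer level. S100a6 was less particular, since lymphoid cells held 1539 and 2386 CPM and saline neutrophils 7240 CPM. Non-classical monocytes, the most similar population, are left out of this comparison. Kupffer cells and neutrophils were chosen with few UMIs of the rule genes, and lymphoid cells with none of Ccr2 or Csf1r. Low levels of monocyte genes in these populations are therefore partly fixed by the choice of cells. Cells missing only the limit on Ace, Treml4 and Ear2 numbered 64 and 49. They held S100a4 at 1747 and 1283 CPM, F13a1 at 224 and 119 CPM and Vcan at 86.3 and 25.5 CPM. These genes were thus not particular to the members among monocytes.

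**Figure D1:**
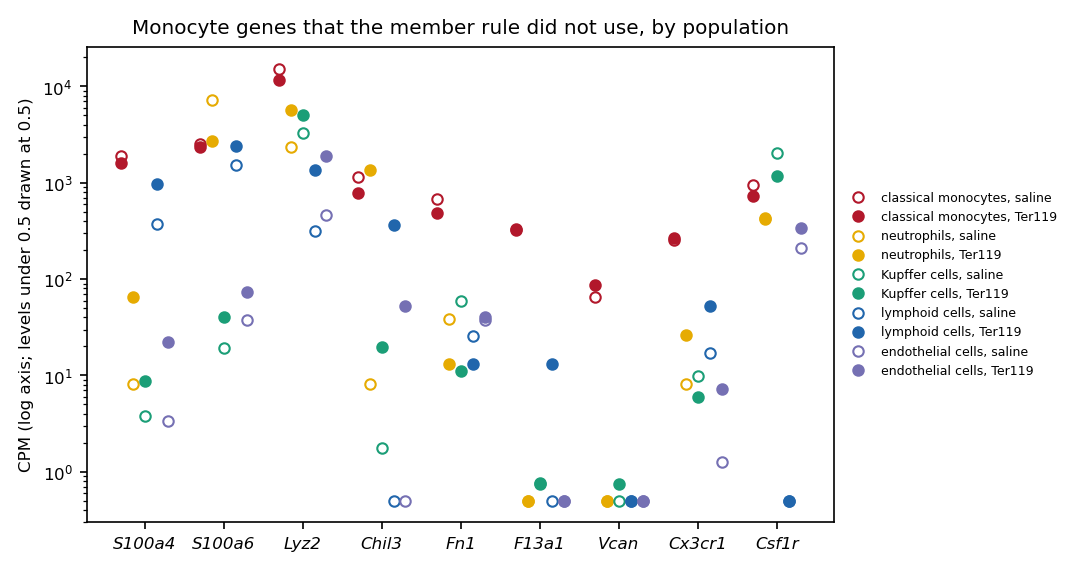
Levels in CPM on a log axis of 9 monocyte genes that the rule did not use, in members and in 4 other populations of each library (open circles saline, filled circles Ter119, levels under 0.5 drawn at 0.5). F13a1 and Vcan stand at or above 64.6 CPM in the members of both libraries and at or below 13.3 CPM in the other 4 populations. Non-classical monocytes are not drawn. Kupffer cells, neutrophils and endothelial cells were chosen with few UMIs of the rule genes, and lymphoid cells with none of Ccr2 or Csf1r. Low levels in these populations are therefore partly fixed by the choice of cells.

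RNA of other cells was present in the members. Each saline member and 344 of 346 Ter119 members held at least 1 UMI of the Kupffer genes Cd5l, Marco, Slc40a1, Clec4f and Vsig4. Over 8 Kupffer markers the summed level was 1831 CPM in saline and 3192 CPM in Ter119 members, with all 8 detected in both. Lymphoid cells, which should lack these genes, held 1437 and 2819 CPM. The Kupffer genes named above were capped in both populations, so these sums are partly fixed by the choice of cells. The 7 T and NK cell markers summed to 0 and 3.00 CPM. The 6 B cell markers summed to 107 and 83.9 CPM and were seen in 48.9% and 13.6% of members. Of these, Cd79a and Ms4a1 were at 0 UMIs in both. The rule itself required 0 UMIs of Cd3e, Nkg7, Cd79a and Siglech, so their absence was fixed in advance. The 6 myeloid progenitor markers summed to 3 and 14 UMIs, with Mpo, Ms4a3 and Prss57 at 0 UMIs in both. The 8 neutrophil markers summed to 975 and 1293 CPM and the 8 dendritic cell markers to 30.9 and 19.5 CPM. The rule also capped progenitor genes and the neutrophil granule genes Camp and Ngp. The sums for lymphoid, dendritic, progenitor and neutrophil markers are therefore partly fixed by the choice of cells. They give no measure of purity. The 6 hepatocyte markers summed to 1096 and 532 CPM. Hemoglobin made up 0.0199% of the UMIs of saline members and 11.6% of those of Ter119 members. Of the latter, 16 had 50% or more hemoglobin, and the lowest value in any Ter119 member was 4 hemoglobin UMIs. The libraries shared 133 barcodes, which included 0 saline and 2 Ter119 members.

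Classical monocytes made up 0.389% of passing cells in the saline library (exact binomial 95% interval 0.284 to 0.520) and 2.50% in the Ter119 library (2.25 to 2.77). The size of this difference depended on the rule. The limit of 2 UMIs on Ace, Treml4 and Ear2 is absolute, so it is stricter for a deep cell, and it alone removed 64 saline cells with a median of 7326.5 UMIs without hemoglobin but 49 Ter119 cells with a median of 1860. Without this limit the shares were 0.942% and 2.85%. When each cell was first thinned to 1000 UMIs without hemoglobin, the rule found 73 saline and 301 Ter119 members, 0.631% and 2.25%, of which 34 and 269 were members before thinning. Without the MHC class II limit, which alone removed 67 saline and 252 Ter119 cells, the shares were 0.968% and 4.32%. Ter119 stood higher in each of these versions. Whether more monocytes were in the liver or fewer cells of other types were recovered cannot be told apart.

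**Figure D2:**
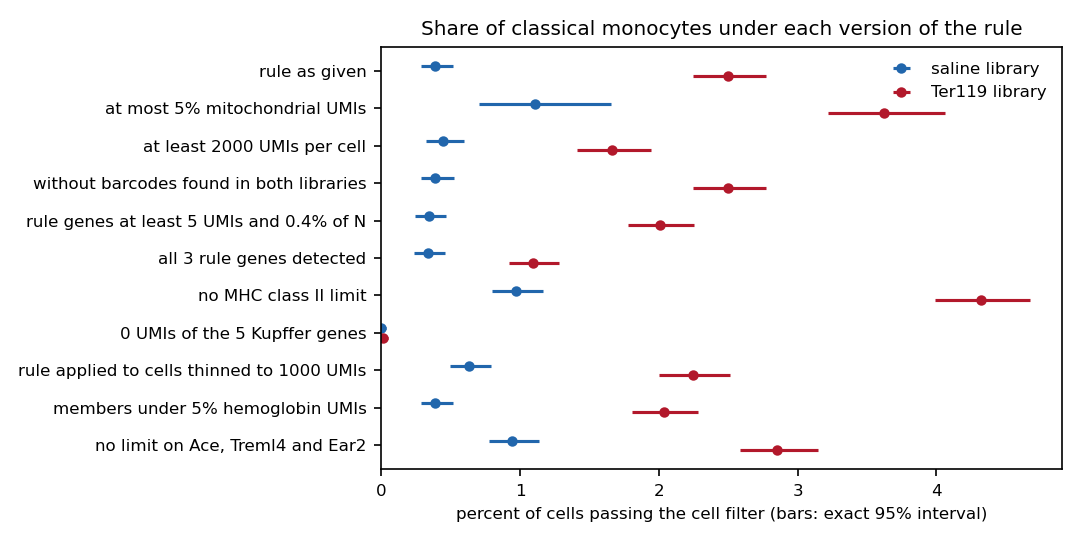
Share of passing cells called classical monocytes in the saline (blue) and Ter119 (red) library under each version of the rule, in percent, with exact 95% intervals. The Ter119 share lies above the saline share in each version with members in both libraries, from 1.09% to 4.32% against 0.337% to 1.11%.

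Between the libraries, 6171 genes had at least 20 CPM in members of 1 library. Ter119 members stood 2-fold or more above saline for 453 of these (7.34%) and 2-fold or more below for 418 (6.77%), 14.1% in all, and the median log2 ratio of Ter119 over saline was -0.03. Per 1000000 of all UMIs, hemoglobin included, the counts were 294 higher and 637 lower, with a median of -0.24. The counting interval lay wholly beyond 2-fold for 58 of the higher and 46 of the lower genes. Counts of genes past 2-fold in the lists below are to be read beside the 7.34% and 6.77%. Of the 453 higher genes, 342 stood in Ter119 lymphoid cells at 50% or more of their level in Ter119 members. The lymphoid cells numbered 44 and 120. Their Ter119 RNA also held 24406 CPM of neutrophil markers, so they are no guide to free RNA for neutrophil genes. They were chosen with Kupffer genes capped and without Csf1r, so their levels of Kupffer genes are partly fixed as well.

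Genes of the inflammatory list stood mostly lower in the Ter119 members, with a log2 ratio below 0 for 12 of 14 genes compared. Of these 14, 6 passed 2-fold downward and 1 upward, with a median log2 ratio of -0.72. Over the 10 genes also compared in Kupffer cells, the median was -0.60 in members and -0.67 in Kupffer cells. In Kupffer cells 6 of these 10 lay below 0 and 4 above. The lower direction is therefore not particular to the monocytes. Cxcl10, the chemokine that draws CXCR3-bearing lymphocytes, stood at 1427 CPM in the saline members and at 396 CPM in those of Ter119, 3.61 times lower (3.10 to 4.20). It was seen in 48.9% of saline and 12.4% of Ter119 members. Thinned to 1000 UMIs, the shares were 31.1% (18.2 to 46.6) and 10.2% (7.19 to 13.9), against 2.27% and 1.74% of lymphoid cells, so the order was the same at equal depth.

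Il1rn, the interleukin 1 receptor antagonist, stood at 441 and 88.4 CPM, 4.99 times lower (3.68 to 6.85), but among cells picked after thinning its log2 ratio was -0.54, short of 2-fold. Acod1, which makes itaconate in activated macrophages, stood at 149 and 36.0 CPM, 4.14 times lower (2.51 to 7.01). Tnfaip3, an NF-kB feedback inhibitor, stood at 101 and 27.0 CPM, 3.75 times lower (2.07 to 7.01). In lymphoid cells Acod1 was at 0 CPM in both libraries and Il1rn at 4.25 and 0 CPM. Neutrophils held Cxcl10 at 213 and 43.5 CPM and Il1rn at 357 and 104 CPM. They held Acod1 at 189 and 67.5 CPM and Tnfaip3 at 61.6 and 30.5 CPM, while their Ccl4 went the other way, at 34.9 and 115 CPM. The member levels were uneven among the saline cells. A single cell gave 19.7% of the Cxcl10 UMIs and another 20.4% of those of Il1rn, and without the top cell of each library the Ter119 to saline ratios were 0.285 and 0.210.

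Further genes of activated myeloid cells stood lower too. Tnf stood at 70.2 and 22.5 CPM, Il1b at 157 and 57.0 CPM, and Clec4e, a receptor for dead-cell and mycobacterial ligands, at 326 and 153 CPM. The ratio for Il1b was 0.362 (0.233 to 0.556) and for Clec4e 0.469 (0.356 to 0.618), and without each library's top cell that for Clec4e was 0.553. Without the MHC class II limit the log2 ratio of Il1b was -0.80, short of 2-fold. Icam1, an adhesion ligand induced by NF-kB, stood at 225 and 86.9 CPM, with a log2 ratio of -0.85 without the MHC class II limit, and Bhlhe40, a transcription factor, at 73.0 and 22.5 CPM. Outside the lists, 3 of the 10 lowest genes were of this kind: Cd83 stood at 107 and 18.0 CPM, the fatty acid receptor Gpr84 at 87.1 and 16.5 CPM and Tagap at 87.1 and 12.0 CPM. The other chemokines compared went both ways, with Ccl9 at 444 and 268 CPM, Ccl6 at 879 and 1253 CPM and Ccl4 at 11.2 and 30.0 CPM.

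Interferon-stimulated genes were lower as a group. Of 35 compared, 33 had a ratio below 1 and 6 were at least 2-fold lower, with a median log2 ratio of -0.70. Isg15, a ubiquitin-like modifier, stood at 688 and 384 CPM (1.79 times lower, 1.50 to 2.15), and Irf7, the amplifying transcription factor of the pathway, at 452 and 238 CPM (1.90 times lower, 1.51 to 2.38). The guanylate-binding protein Gbp5 stood at 219 and 86.9 CPM, with a log2 ratio of -0.86 without the limit on Ace, Treml4 and Ear2. The antiviral gene Rsad2 was close in both, at 222 and 207 CPM. MHC class I genes showed the same direction in 14 of 14, with none past 2-fold and a median of -0.69. B2m, the shared light chain, stood at 4326 and 2716 CPM, and the peptide transporter Tap1 at 292 and 160 CPM. Kupffer cells of these mice gave nearly the same medians over the genes compared in both, -0.77 for 35 interferon-stimulated and -0.68 for 13 class I genes. The direction is therefore not particular to the monocytes.

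**Figure D3:**
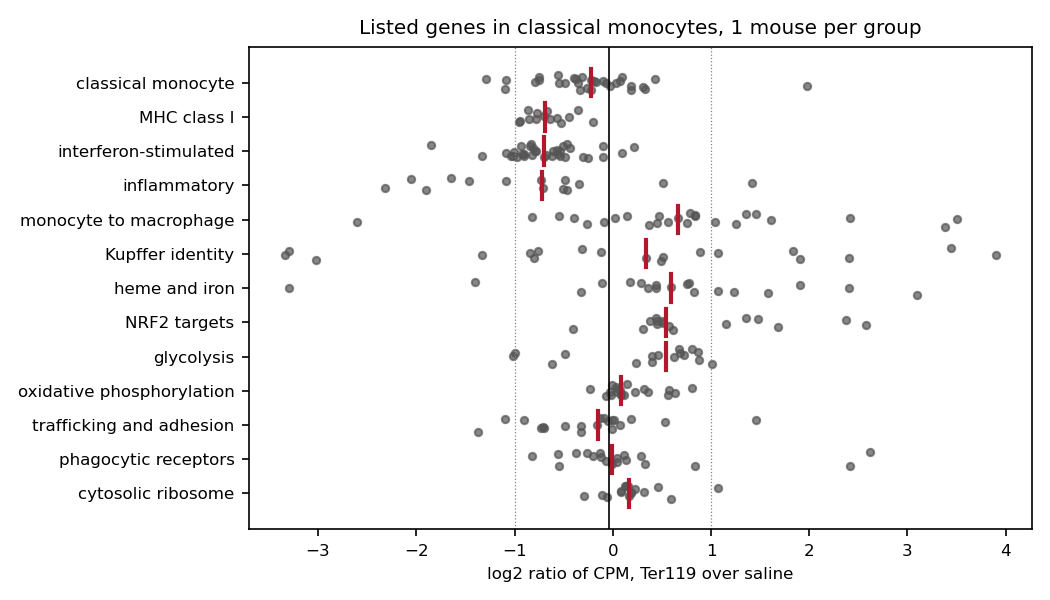
Log2 ratio of CPM, Ter119 over saline, for each gene (grey points) of 13 lists in classical monocytes, with the list median (red bar), the median of all 6171 genes (black line) and 2-fold limits (dotted lines). MHC class I and interferon-stimulated genes lie mostly to the left of 0 and NRF2 targets mostly to the right.

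Genes of monocyte identity stood mostly slightly lower in the Ter119 members. Of 31 classical monocyte genes compared, 3 passed 2-fold downward and 1 upward, beside 6.77% and 7.34% of all genes compared. Their median log2 ratio was -0.23, with 22 of 31 below 0, against -0.03 for all genes. Chil3, a chitinase-like protein, stood at 1146 and 781 CPM, and Fn1, fibronectin, at 680 and 484 CPM. Cx3cr1, the fractalkine receptor, stood at 253 and 265 CPM, with a ratio of 1.05 (0.810 to 1.37), and Nr4a1, which drives conversion to non-classical monocytes, at 115 and 114 CPM. Csf1r, the receptor for the monocyte growth factor CSF1, stood at 955 and 727 CPM. Lymphoid cells were chosen to hold no Csf1r UMI, so they give no comparison for this gene. Cd14 stood at 121 and 49.5 CPM, but 72.1% of its saline UMIs lay in 1 cell, and without the top cell of each library the levels were 34.5 and 43.6 CPM.

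Genes of heme and iron handling stood higher in Ter119 members. Of 19 compared, 6 passed 2-fold upward and 2 downward, with a median log2 ratio of 0.59. Hmox1, the enzyme that opens the heme ring, stood at 225 CPM in the saline members and at 1920 CPM in those of Ter119, 8.54 times higher (6.81 to 10.8), and was seen in 53.3% and 90.2% of members. Ftl1, the ferritin light chain, stood at 4632 and 10872 CPM (2.35 times higher, 2.22 to 2.48). Fth1, the heavy chain, stood at 9053 and 15479 CPM (1.71 times higher, 1.64 to 1.78). Blvrb, a biliverdin reductase, stood at 89.9 and 336 CPM, and the heme transporter Slc48a1 at 56.2 and 168 CPM.

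Other cells of the Ter119 library were also higher in these genes. Neutrophils held Hmox1 at 216 and 2682 CPM, Ftl1 at 5715 and 12536 CPM and Fth1 at 7899 and 17216 CPM. In lymphoid cells Hmox1 stood at 72.3 and 1239 CPM. After thinning, 15.6% (6.49 to 29.5) of saline and 74.1% (69.2 to 78.7) of Ter119 members held a Hmox1 UMI, against 4.55% (0.555 to 15.5) and 67.8% (58.5 to 76.2) of lymphoid cells. The Ter119 shares of members and lymphoid cells overlap in their intervals, so the Hmox1 share is not read as expression by the monocytes. As a level, Hmox1 in Ter119 members was 28.4% of that in Kupffer cells. The Kupffer genes Cd5l, Slc40a1 and Vsig4 stood there at 16.8%, 17.0% and 18.8%, and in lymphoid cells Hmox1 stood at 18.3%. Marco, another gene of that set, stood higher and is given below. The rule kept the Kupffer genes low in members, and the same genes defined the Kupffer cells. Their percentages are therefore partly fixed by the choice of cells and give no measure of free RNA. Ftl1 was the only one of the 6 higher heme and iron genes with a Ter119 lymphoid level under 50% of the member level. It stood at 5223 against 10872 CPM, but Ter119 neutrophils held more Ftl1 than the members. Of all 453 higher genes, 111 had a lymphoid level under 50%. The part of free RNA in these differences was not tested.

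NRF2 targets, which protect cells from oxidants, had ratios above 1 in 15 of 16 genes compared, with 6 past 2-fold upward, 0 downward and a median log2 ratio of 0.54. Gclm, the regulatory subunit for glutathione synthesis, stood at 33.7 and 201 CPM (5.96 times higher, 3.30 to 11.8), and Prdx1, a peroxiredoxin, at 831 and 2322 CPM (2.79 times higher, 2.46 to 3.17). In Ter119 lymphoid cells these stood at 173 and 1266 CPM. Neutrophils held Gclm at 61.6 and 252 CPM and Prdx1 at 300 and 2144 CPM. Gstm1, a glutathione transferase, stood at 101 and 225 CPM in members and at 106 CPM in Ter119 lymphoid cells. Mgst1, a microsomal glutathione transferase, stood at 287 and 355 CPM, with a ratio of 1.24 (0.979 to 1.58). Glycolysis genes had a median of 0.54 over 16 genes, with Gapdh at 927 and 1870 CPM (log2 ratio 0.64 without the MHC class II limit) and Ldha at 272 and 501 CPM. Kupffer cells gave medians of 0.92 over 15 NRF2 targets and 1.05 over 15 glycolysis genes.

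**Figure D4:**
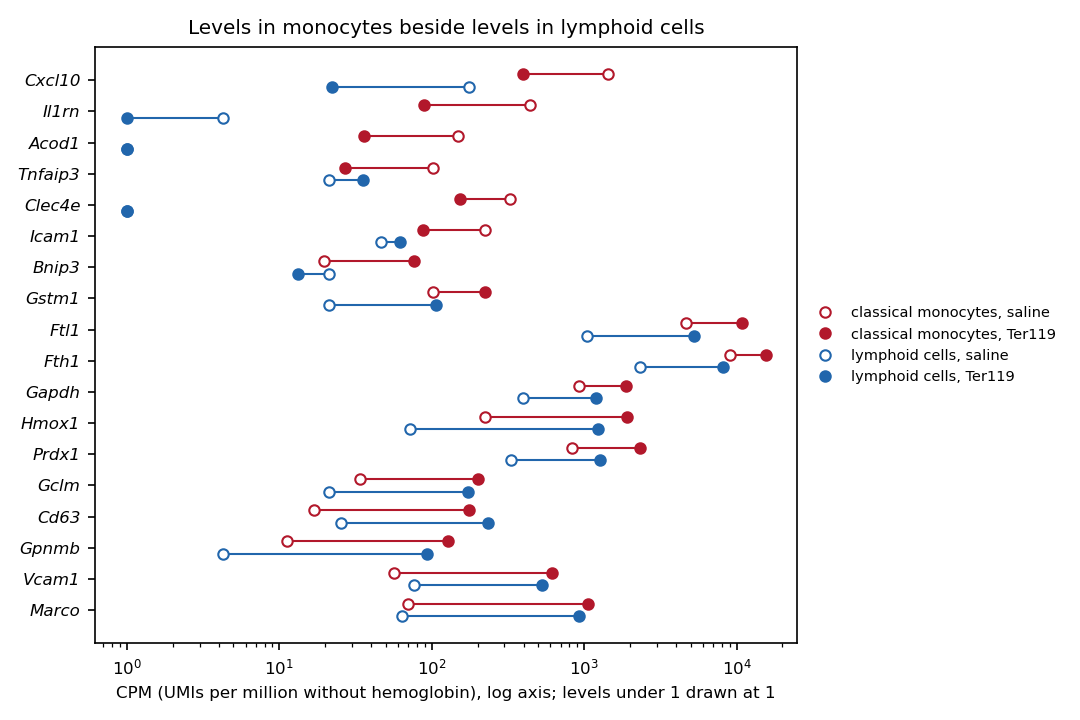
Level in CPM (log axis, levels under 1 drawn at 1) of 18 genes in classical monocytes (red) and lymphoid cells (blue), saline as open and Ter119 as filled circles. Cxcl10, Il1rn, Acod1 and Clec4e stand far above the lymphoid level, and Marco, Vcam1, Gpnmb and Cd63 stand near it in both libraries or in Ter119.

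Macrophage and Kupffer cell genes differed in both directions. Of 25 genes of the monocyte to macrophage transition, 8 passed 2-fold upward and 1 downward, beside 7.34% and 6.77% of all genes compared. Their median log2 ratio was 0.67. Most higher genes of any kind, 342 of 453, had a Ter119 lymphoid level of 50% or more of the member level. This trait is therefore not particular to these lists. For 8 of those 8 transition genes the Ter119 lymphoid level was 50% or more of the member level. Among 19 Kupffer identity genes 6 passed 2-fold upward and 4 downward, with a median of 0.34, and the same held for 6 of those 6. Marco, a scavenger receptor, stood at 70.2 and 1052 CPM in members, which is 8.44% and 21.2% of the Kupffer level, and at 64.0 and 929 CPM in lymphoid cells. Vcam1 stood at 56.2 and 611 CPM in members and at 76.5 and 527 CPM in lymphoid cells. Gpnmb, a lysosomal glycoprotein of lipid-laden macrophages, stood at 11.2 and 127 CPM in members, its 4 saline UMIs all in 1 cell, and at 92.9 CPM in Ter119 lymphoid cells. After thinning, a Marco UMI was seen in 58.7% of Ter119 members and 64.3% of Ter119 lymphoid cells. Marco is among the Kupffer genes capped in both populations, so the nearness of these shares is partly built in and decides nothing.

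Some genes of resident Kupffer cells were lower in Ter119 members, as they were in Kupffer cells. Timd4, a phosphatidylserine receptor of resident Kupffer cells, stood at 75.8 and 7.49 CPM in members and at 547 and 29.6 CPM in Kupffer cells. Cd163, the hemoglobin-haptoglobin receptor, stood at 59.0 and 6.00 CPM in members and at 825 and 33.5 CPM in Kupffer cells. The complement genes C1qa, C1qb and C1qc stood at 9.04%, 13.8% and 9.03% of the Kupffer level in saline and at 21.6%, 24.7% and 23.7% in Ter119 members, beside 23.3%, 19.4% and 21.4% in Ter119 lymphoid cells. Lgals3, galectin 3, was different in that its level in members was above that in Kupffer and lymphoid cells of both libraries, at 1393 and 1924 CPM (1.38 times higher, 1.24 to 1.54).

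Some non-classical monocyte genes depended on the rule's own limit. Of 15 compared, 6 passed 2-fold upward and 1 downward, with a median log2 ratio of 0.58. Ace, Treml4 and Ear2 stood at 33.7, 39.3 and 30.9 CPM in saline members and at 127, 108 and 129 CPM in Ter119 members. The rule capped them at 2 UMIs in each cell, which allows a higher CPM in a shallow cell. The cause of the difference was not tested. Klf4, a transcription factor of monocytes, stood at 47.8 and 187 CPM (3.92 times higher, 2.35 to 6.95), and Spn, a sialoglycoprotein of non-classical monocytes, at 42.1 and 115 CPM. The saline cells just outside the limit, 22 cells with 3 or 4 UMIs of the limiting genes, had Klf4 at 195 CPM and Spn at 97.5 CPM. The 42 saline cells with 5 or more had Klf4 at 430 CPM and Nr4a1 at 426 CPM. The Ter119 cells outside the limit had Klf4 at 206 and 161 CPM and Nr4a1 at 220 and 141 CPM. Without the limit the log2 ratios of Klf4 and Spn were -0.17 and -0.35. Fabp4, a fatty acid binding protein of the same list, was at 0 UMIs in saline and 101 UMIs in Ter119 members, and without the limit its log2 ratio was 1.29. It stood at 2621 CPM in Ter119 endothelial cells. Cx3cr1 stood at 396 CPM in the saline cells with 3 or 4 UMIs and at 537 CPM in those with 5 or more, while in Ter119 it stood at 294 and 222 CPM.

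Most of the other lists stood closer to the median of all genes. Oxidative phosphorylation had 0 of 20 genes past 2-fold in either direction and a median log2 ratio of 0.08. Trafficking and adhesion genes had a median of -0.15, with 1 of 20 past 2-fold upward and 2 downward, and phagocytic receptors -0.01, with 2 of 19 higher and 0 lower. The signalling chains Tyrobp and Fcer1g stood at 3497 and 3336 CPM and at 3287 and 3389 CPM. Among 23 transcription factors 4 were higher and 3 lower, with a median of -0.02. Spi1, the myeloid master regulator PU.1, stood at 902 and 619 CPM, and Irf8 at 289 and 309 CPM. Immediate-early genes, which respond to tissue digestion, stood further off, with a median of -0.47 and 11 of 16 genes with a log2 ratio below 0, with Junb at 399 and 207 CPM. Cytosolic ribosome genes had a median of 0.16 over 16 genes, and 9 glucocorticoid response genes one of -0.17.

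Sparse lists carried little weight. Of 10 cell cycle genes compared 5 passed 2-fold upward, with a median of 1.11, but a UMI of Mki67 or Top2a was seen in 3 of 45 saline and 22 of 346 Ter119 members. The neutrophil-like genes S100a8 and S100a9 stood at 315 and 588 CPM and at 441 and 511 CPM. In saline 85.7% of the S100a8 UMIs and 72.0% of those of S100a9 lay in the same cell, and without the top cell of each library S100a8 stood at 45.2 and 491 CPM. In Kupffer cells S100a8 stood at 87.2 and 605 CPM, and the part of RNA from other cells was not tested. Of the 12 genes of dendritic-like monocytes 4 could be compared, with a median of -0.86.

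Among genes outside the lists, liver-cell transcripts were lower in Ter119 members. Serpina3k stood at 67.4 CPM in saline members, with 3 UMIs in Ter119 members, and at 166 and 7.89 CPM in Kupffer cells. Of the 10 highest, Bnip3, a mitophagy gene induced by low oxygen, stood at 19.7 and 76.4 CPM (3.89 times higher, 1.76 to 10.2), above the 16.4 and 13.3 CPM of Ter119 Kupffer and lymphoid cells. Ero1l, an oxidase of the endoplasmic reticulum, stood at 30.9 and 118 CPM, above the 21.1 and 48.7 CPM there. Lipa, lysosomal acid lipase, stood at 118 and 435 CPM in members and at 235 CPM in Ter119 lymphoid cells.

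The members also varied among themselves. Within each library, cells were ordered by MHC class II UMIs after thinning, and the cells in the upper of 3 ranges were compared with those in the lower, as ranges of a score and not as cell types. These held 15 and 16 saline cells and 106 and 125 Ter119 cells, upper range first, ties being kept together. Some genes of classical monocytes stood lower where MHC class II was higher, and others did not. Fn1 stood at 870 and 423 CPM in the lower and upper range of saline members and at 705 and 234 CPM in those of Ter119 members. Chil3 stood at 1667 and 651 CPM and at 1036 and 443 CPM, and F13a1 at 394 and 118 CPM and at 371 and 200 CPM. S100a4 stood at 1747 and 1716 CPM and at 1765 and 1344 CPM. Ms4a4c stood at 523 and 803 CPM and at 432 and 434 CPM.

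Other genes stood higher with MHC class II. The receptor tyrosine kinase Axl stood at 145 and 507 CPM in the lower and upper saline range and at 147 and 324 CPM in those of Ter119. Lpl, lipoprotein lipase, stood at 539 and 1547 CPM and at 518 and 820 CPM. Il1rn stood at 185 and 744 CPM and at 36.7 and 100.1 CPM, although Cxcl10 went the other way, at 1127 and 42.3 CPM and at 538 and 272 CPM. Fth1 stood at 7262 and 15015 CPM and at 13149 and 17072 CPM. A single saline cell gave 19.5% of the Fth1 UMIs of all saline members, and its part in this contrast was not tested. Median depth in the lower and upper range was 8157 and 7586 UMIs in saline and 1800 and 1882 UMIs in Ter119. Along a score of C1q genes and Apoe, the Kupffer gene Cd5l differed too, at 808 and 1444 CPM in the lower and upper Ter119 range, and the part of free RNA was not tested.

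**Figure D5:**
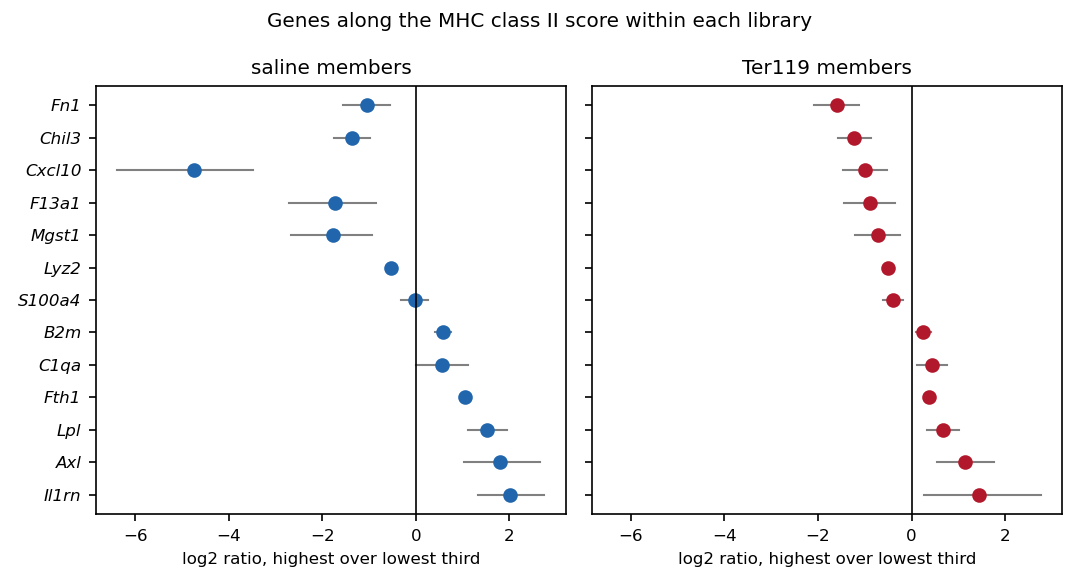
Log2 ratio of CPM between the members in the upper and the lower of 3 ranges of MHC class II UMIs, for 13 genes in saline (left) and Ter119 (right) members, with 95% counting intervals. Fn1, Chil3, F13a1 and Mgst1 lie left of 0 and Lpl, Axl and Il1rn right of 0 in both libraries.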

How the data were processed

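Per the submitters' processing notes, the authors used Cell Ranger (4.0.0; the file headers name 6.0.2) and GRCm38.p6. The deposited values are UMI counts per gene and barcode, per the file headers, and the way hashtags were resolved is not given in the labels. The libraries held 18354 saline and 25760 Ter119 barcodes, and no doublet caller was run. Members and lists were chosen with earlier results of these data known. Counts were summed over members (355997 and 667216 UMIs without 4 hemoglobin genes). Ratios carry exact conditional binomial 95% intervals and shares exact Clopper-Pearson ones. In a ratio, but not in its interval, a count under 3 in either library was set to 3. Genes needed 20 CPM in 1 library. Named genes were 28 set genes, up to 3 of each of 21 lists by size of ratio, and the 10 highest and 10 lowest outside the lists with 50 CPM and 10% of members. Other named genes, and those in the plots of lymphoid levels and MHC class II ranges, were chosen after their values were seen. Lymphoid cells served as a guide to free RNA within limits, since they were chosen with Kupffer genes capped and without Csf1r, Ccr2 and Csf3r. Scaling alternatives used edgeR 4.0.16 and DESeq2 1.42.0, and the rest Python 3.11.15, scipy 1.17.1 and pandas 2.3.3. The calculations were tested on simulated data. Some genes are not reported here.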

Additional observations from a re-analysis of the deposited data

Results flagged for a closer look

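Spp1, osteopontin, had a log2 ratio of -2.61 between Ter119 and saline members, opposite in direction to Kupffer cells, where it was 2.79. It stood at 36.5 and 6.00 CPM in members and at 4.72 and 32.7 CPM in Kupffer cells. In saline 12 of the 13 member UMIs (92.3%) lay in 1 cell, and the Ter119 members held 4 UMIs in all. Without the top cell of each library the levels were 2.89 and 4.51 CPM, a ratio of 1.56. Too few UMIs were left to give a direction. The difference between the populations was not tested.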

How the results depend on the processing

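No paired analysis was possible because each group had 1 mouse. The Ter119 share was above the saline share under each alternative. With at most 5% mitochondrial UMIs the shares were 1.11% and 3.62%, and 693 genes were 2-fold lower. The Ter119 share was 1.66% with at least 2000 UMIs, 2.01% with at least 5 rule-gene UMIs and 0.4%, and 1.09% with all 3 rule genes, where 651 genes were 2-fold lower. Without the MHC class II limit the shares were 0.968% and 4.32%, with 197 genes higher and 211 lower. With 0 UMIs of the 5 Kupffer genes the shares were 0.0% and 0.0144%, and no gene ratio could be formed. After thinning the saline share was 0.631%. Alternatives chosen after seeing the data gave 2.04% in Ter119 for members under 5% hemoglobin, and 0.942% and 2.85% without the limit on Ace, Treml4 and Ear2. Per all UMIs, 294 genes were higher and 637 lower, at 50 CPM 142 and 193, and with no minimum 758 were lower.

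Some log2 ratios turned sign. With all 3 rule genes they were 0.028 for Cxcr2, 0.028 for Spp1 and 0.74 for Cd14. Without the MHC class II limit they were -0.16 for Ube2c, -0.30 for Stmn1, -0.32 for Egr1 and -0.053 for the cell cycle median. After thinning they were 0.26 for Cxcr2, -0.0092 for Top2a, -0.31 for Egr1 and 0.15 for Cd14. Without the limit on Ace, Treml4 and Ear2 they were -0.17 for Klf4, -0.35 for Spn, -0.71 for Eno3 and -0.31 for Egr1. With cells weighted equally Lcn2 was -0.020. The cause was not tested. Of 34 named genes past 2-fold upward, 19 stayed so under all 16 alternatives that gave a value, and of 28 downward, 16 did.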
